A study of Mus musculus with 48 samples.

Results

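The 10 genes described here, Pecam1, Cdh5, Kdr, Flt1, Tek, Tie1, Vwf, Eng, Esam and Cldn5, are classical markers of blood vessel endothelium. They were found by gene symbol among the 55450 genes of the count table, and each matched 1 gene. Their transcripts were counted in bulk RNA from 48 subcutaneous B16-D5 melanomas, 3 in each of 16 conditions, with 1 mouse per library. B16-D5 is a transplanted mouse melanoma line. The hosts were C57BL/6J wild-type (WT) mice or mice with a knockout of inducible nitric oxide synthase (iNOS KO). The knockout was carried by the host and not by the injected cells. Mice arrived at 4 weeks of age and were housed for 2 weeks, and tumor cells were injected into the flank 8 days before treatment. Treated mice received 250 µg of anti-PD-1 antibody, which blocks an inhibitory receptor of T cells, or of control IgG. The first experiment, a time course, holds 30 WT tumors: 1 untreated condition at 0 hours, and untreated, IgG and anti-PD-1 conditions at 6 hours (D0 in the sample titles), at day 1 and at day 3. In the second, 18 tumors of WT or iNOS KO hosts, untreated or given IgG or anti-PD-1, were taken at day 7. A second antibody dose was given on day 3, and whether the day 3 tumors were taken before it is not stated in the sources used here.

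Blood vessels are lined by endothelial cells, which hold together through adhesion molecules of their junctions and respond to growth factors from the surrounding tissue. VEGF-A binds the receptors encoded by Kdr (VEGFR2) and Flt1 (VEGFR1), and angiopoietins bind the receptor encoded by Tek (Tie2), with which the orphan receptor Tie1 associates. Pecam1 (CD31), Cdh5 (VE-cadherin), Esam and Cldn5 (claudin-5) encode adhesion and tight junction proteins of endothelial contacts. Eng (endoglin) encodes a co-receptor for ligands of the TGF-beta family, and Vwf encodes von Willebrand factor, a secreted clotting protein. Several of these genes are not restricted to vessels. Pecam1 is also present on platelets and leukocytes, Vwf in megakaryocytes, and Eng on macrophages and mesenchymal cells. Melanomas need new vessels to grow, and nitric oxide made by the endothelial enzyme Nos3 widens them.

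Levels are given as CPM, the counts scaled to a common total with TMM library sizes, set within each experiment, and values of the 2 experiments are therefore not compared by test. Libraries held 25574203 to 47687872 gene counts in the first experiment and 11625862 to 40959309 in the second. In the second experiment, 3 libraries had far more counts on 1781 genes of sensory receptors, a family active mainly in sensory tissue. These genes took 3903 CPM in replicate 3 and 1374 CPM in replicate 4 of WT anti-PD-1, and 973 CPM in replicate 1 of untreated iNOS KO, against 13.6 to 246 CPM in the other 15, here scaled to the total count of each library without TMM. WT anti-PD-1 replicate 3 was also the shallowest library. Medians that rest on these 3 libraries are also given without them, as are correlations except where stated. Below, "the sensory covariate" means a fit with the log2 level of these counts as a covariate. Nos2, the gene of iNOS, did not separate the genotypes. It ranged from 1.15 to 5.92 CPM (median 4.21 CPM) in the 9 tumors labelled iNOS KO and from 1.40 to 7.28 CPM (median 3.28 CPM) in the 9 tumors labelled WT, and its log2 fold changes between them were 0.50 untreated, 0.89 after IgG and -0.85 after anti-PD-1 (adjusted p = 0.626, 0.632 and 0.284). Which part of Nos2 the hosts lack is not given in the sources used here, and the injected cells carry the gene, so these counts leave the genotype resting on the sample titles, against a genotype field that reads WT for all 48 samples. iNOS KO below means libraries so titled.

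RefSeq promoter windows (assembly GRCm38.p6, 250 bases before to 50 after the start) were matched for 6 of the 10 genes, Eng, Tek, Tie1, Kdr, Flt1 and Cldn5, and not for Pecam1, Cdh5, Vwf and Esam. The sequences of Tie1, Flt1 and Kdr, whose levels moved together across the tumors of the time course, and of Eng, whose level did not do so there, are shown 5′ to 3′ on the strand of the gene. Capitals mark the letters AGGAAG or CGGAAG on either strand (CTTCCT or CTTCCG when read on the strand shown). Both hold GGAA, the core that ETS transcription factors such as ERG and FLI1 recognise. GGAA with other letters around it also occurs, for example in Kdr, and is not marked.
Tie1, chr4:118489800-118490099, minus strand: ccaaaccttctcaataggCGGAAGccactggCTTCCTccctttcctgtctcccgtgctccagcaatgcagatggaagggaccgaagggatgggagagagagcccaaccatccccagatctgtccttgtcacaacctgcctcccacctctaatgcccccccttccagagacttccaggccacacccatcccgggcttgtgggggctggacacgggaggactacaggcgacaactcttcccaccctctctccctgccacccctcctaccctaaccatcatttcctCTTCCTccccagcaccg
Flt1, chr5:147725962-147726261, minus strand: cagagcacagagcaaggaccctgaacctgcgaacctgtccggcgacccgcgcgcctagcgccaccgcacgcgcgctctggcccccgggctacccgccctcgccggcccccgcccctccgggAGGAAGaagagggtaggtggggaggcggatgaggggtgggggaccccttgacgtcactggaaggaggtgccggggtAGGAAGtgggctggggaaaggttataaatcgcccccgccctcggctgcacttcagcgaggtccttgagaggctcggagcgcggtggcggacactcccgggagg
Kdr, chr5:75978406-75978705, minus strand: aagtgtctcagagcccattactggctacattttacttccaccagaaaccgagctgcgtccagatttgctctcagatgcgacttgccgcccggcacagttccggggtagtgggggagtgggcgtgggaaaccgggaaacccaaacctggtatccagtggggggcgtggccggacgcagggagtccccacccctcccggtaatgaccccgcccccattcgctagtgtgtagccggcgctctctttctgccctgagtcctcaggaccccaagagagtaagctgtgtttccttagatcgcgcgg
Eng, chr2:32646345-32646644, plus strand: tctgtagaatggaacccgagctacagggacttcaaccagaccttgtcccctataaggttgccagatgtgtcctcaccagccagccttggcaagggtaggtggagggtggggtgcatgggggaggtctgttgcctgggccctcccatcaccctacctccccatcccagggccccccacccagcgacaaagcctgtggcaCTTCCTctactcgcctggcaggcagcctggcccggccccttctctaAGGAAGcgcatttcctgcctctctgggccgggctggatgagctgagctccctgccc
The letters AGGAAG or CGGAAG occurred 3 times in Tie1, 2 times in Flt1 and 2 times in Eng, and not in Kdr, Tek or Cldn5. They were thus in 3 of 6 windows, against 46.5% of 32851 windows of the same length. AGATAA, recognised by GATA factors, and AACAAT, recognised by SOX factors, were each found only in Tek among the 6 windows searched on both strands, and in 11.2% and 10.7% of all windows.

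All 10 genes passed the filter on low counts in both experiments and were detected in nearly every tumor. Esam had a count of 0 in 1 tumor of the 48, which allows up to 0.0841 CPM there, and Cldn5 had a count of 0 in another, which allows up to 0.105 CPM. Per kilobase of exon, Eng was the most abundant, with a median of 79.5 CPM per kilobase over the 30 tumors of the first experiment. It was followed by Cdh5 at 28.6, Pecam1 at 9.60, Flt1 at 4.34, Kdr at 4.04 and Tie1 at 2.97 CPM per kilobase. Tek at 1.73, Esam at 1.27, Vwf at 0.876 and Cldn5 at 0.759 CPM per kilobase were the lowest. Of neighbours in this order, only Pecam1 and Flt1 had medians farther apart on the log2 scale (1.15) than the SD between tumors of a condition of both genes. The other neighbours lay within that spread, which does not use that the genes were read in the same tumors. Tumor by tumor, Eng stood above Cdh5 in every tumor of the first experiment. It was closest in day 1 IgG replicate 2, at 79.2 against 74.0, and in untreated replicate 3 of 0 hours, at 55.0 against 50.3 CPM per kilobase. Pecam1 fell below Flt1 in day 1 IgG replicate 4, at 2.67 against 2.93 CPM per kilobase. In the second experiment the order was the same from Eng down to Tie1, and Tek stood below Esam and Vwf at 1.13 CPM per kilobase. There Eng, Cdh5, Pecam1 and Flt1 lay apart from each other beyond that spread, as did Tie1 from Esam, and the other neighbours did not.

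**Figure D1:**
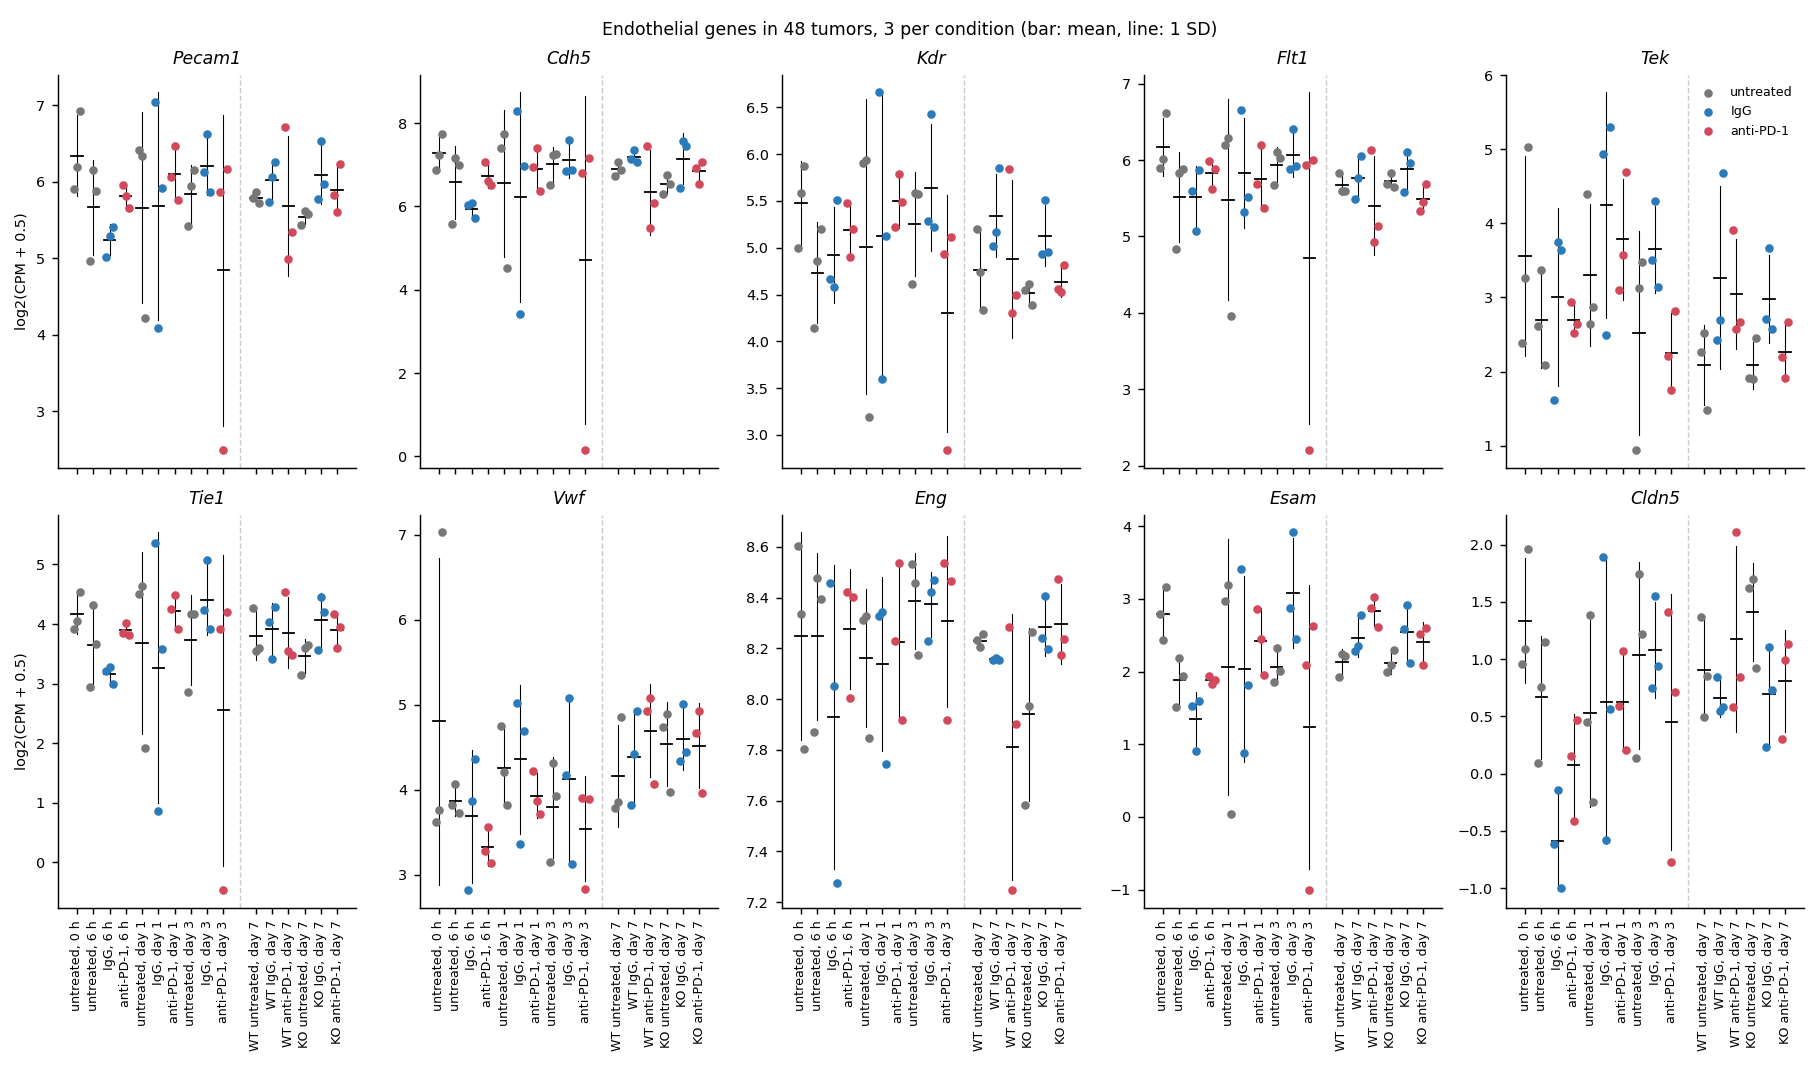
Level of each endothelial gene, as log2(CPM + 0.5), in every tumor of the 16 conditions, with the time course left and day 7 right of the dashed line. Points are tumors, bars are means and vertical lines are 1 SD. The lowest Cdh5, Tie1 and Esam points all belong to 1 anti-PD-1 tumor of day 3, whose Eng level lies within the range of the others.

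The junction gene Cdh5 spanned the widest range. In untreated tumors it stood at 118, 149.8 and 211 CPM at 0 hours, at 47.1, 143 and 127 CPM at 6 hours, at 168, 212 and 22.5 CPM at day 1 and at 91.0, 151 and 153 CPM at day 3. After IgG it stood at 65.4, 67.3 and 52.0 CPM at 6 hours, at 311, 10.2 and 124 CPM at day 1 and at 115, 194 and 117 CPM at day 3. After anti-PD-1 it stood at 133, 97.2 and 90.9 CPM at 6 hours, at 123, 169 and 82.4 CPM at day 1 and at 112, 0.617 and 143 CPM at day 3. In 3 of these conditions 1 tumor stood far below its replicates, and all 3 IgG tumors of 6 hours were low. Within the day 1 IgG condition alone, the highest tumor had 30.7 times the Cdh5 level of the lowest. The within-condition SD of Cdh5 was 1.64 on the log2 scale, which is a factor of 3.11, and it was larger than that of 99.4% of the 15109 genes with a mean of at least 1 CPM.

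Pecam1, Esam and Cldn5 encode other proteins of endothelial contacts and varied less. Pecam1 ranged from 5.16 to 131 CPM around a median of 59.8 CPM, and its within-condition SD was 0.95 on the log2 scale. Esam reached 14.6 CPM and Cldn5 3.39 CPM, and both were low enough that some tumors contributed only a handful of reads. Cldn5 was lowest in the IgG tumors of 6 hours, at 0.153, 0.404 and 0 CPM, and stood at 1.18, 2.44 and 1.42 CPM in those of day 3.

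The VEGF receptors Kdr and Flt1 followed the same tumors. Kdr ranged from 6.67 to 101 CPM (median 36.5 CPM) and Flt1 from 4.12 to 101 CPM (median 58.6 CPM), each with the lowest value in the same day 3 anti-PD-1 tumor and the highest in the same day 1 IgG tumor. Of the angiopoietin receptors, Tie1 ranged from 0.224 to 40.8 CPM between those same tumors. Tek did not: its lowest tumor was an untreated one of day 3, at 1.43 CPM, and its highest was day 1 IgG replicate 6, at 38.9 CPM.

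Eng was the least variable of the 10. It ranged from 155 to 389 CPM in the first experiment, 2.51-fold from lowest to highest, against 504-fold for Cdh5 and 182-fold for Tie1. Its within-condition SD was 0.34 on the log2 scale, larger than that of 51.5% of the genes, so that its variation was ordinary and that of the other 9 genes was above that of 89.4% or more. In the second experiment no tumor stood so low, and the ranges narrowed to 4.27-fold for Cdh5, 2.74-fold for Tie1 and 2.34-fold for Eng.

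Vwf was near 14.1 CPM in the median tumor of the first experiment and reached 130.1 CPM in untreated replicate 3 of 0 hours. The other untreated tumors of 0 hours had 11.8 and 13.03 CPM. Replicate 3 also had the highest levels of Ptprb, Erg and Podxl, named here after their values were seen. Of the 14 co-receptors, junction and signaling partners, 4 were highest and 2 lowest in it. So were 3 of 10 endothelial transcription factors and 3 of 14 other endothelial surface genes highest, and 0 lowest. Eng was at 223 CPM, below its median of 322 CPM. This tumor had the highest summed levels of the marker lists of skeletal muscle (5225 CPM, median 12.7 CPM), keratinocytes (5385 CPM, median 4.26 CPM), adipocytes (348 CPM, median 38.9 CPM) and pericytes and smooth muscle (942 CPM, median 319 CPM). The platelet list stood at 9.30 CPM there, near its median of 9.49 CPM. The part of these tissues in the Vwf level was not tested. In bulk RNA, fewer endothelial cells and less RNA per cell cannot be told apart, nor can RNA from other cells that carry a gene's transcript, such as those named above for Pecam1, Vwf and Eng. This holds for every level given here.

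In 3 tumors of the first experiment most of the 10 genes were low together, and they came from 3 conditions. In day 3 anti-PD-1 replicate 4, Cdh5 rested on 22 counts, Tie1 on 8, Cldn5 on 3 and Esam on 0, in a library of ordinary depth. Pecam1, Kdr and Flt1 were at 5.16, 6.67 and 4.12 CPM there, the lowest of the 30 tumors, while Eng was at 241 CPM from 8602 counts and Vwf at 6.59 CPM. The other anti-PD-1 tumors of day 3 had 57.8 and 71.4 CPM of Pecam1, within the range of most tumors. Of the 10 genes, 6 had their lowest value in this tumor.

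The same tumor was also lowest for 9 of 14 further endothelial surface genes and for 3 of 10 endothelial transcription factors. Among these, named after their values were seen, Emcn was at 0.140 CPM (median 15.5 CPM), Aplnr at 0.168 CPM (median 16.4 CPM), and the transcription factors Erg and Sox18 at 0.0280 and 0.280 CPM (medians 7.57 and 15.8 CPM). Rgs5, a marker of the pericytes that wrap capillaries, was at 0.168 CPM against a median of 54.2 CPM. Pdgfrb, a receptor of pericytes and fibroblasts, was not low, at 57.9 CPM against a median of 58.3 CPM. The summed pericyte and smooth muscle list was at 121 CPM against a median of 319 CPM, and 3 of its 9 genes were lowest in this tumor. Fibroblast markers were not low, with a sum of 7407 CPM against a median of 3486 CPM, nor were melanoma markers, with 11398 CPM against 13254 CPM. The summed list of 5 lymphatic endothelial markers was at 192 CPM, above its median of 157 CPM.

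Vegfa, the ligand of Kdr and Flt1, had its highest level of the 30 tumors there, at 880 CPM (the median was 363 CPM). So did 7 of the 8 genes of the hypoxia list, whose sum was 1704 CPM against a median of 759.6 CPM. Day 1 IgG replicate 4, with 10.2 CPM of Cdh5, 1.31 CPM of Tie1 and 2.08 CPM of Rgs5, had the second highest hypoxia sum, at 1233 CPM, and 699 CPM of Vegfa. Untreated day 1 replicate 6, with 22.5 CPM of Cdh5, 3.28 CPM of Tie1 and 6.95 CPM of Rgs5, had 1130 CPM of the hypoxia list and 777 CPM of Vegfa. High Vegfa also occurred without low endothelial genes, since untreated day 1 replicate 1 had 827 CPM of Vegfa and 168 CPM of Cdh5. The part of oxygen supply in these levels was not tested.

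At the other end, day 1 IgG replicate 2 had the highest level of 5 of the 10 genes. It held 311 CPM of Cdh5, 131 CPM of Pecam1, 101 CPM of both Kdr and Flt1, and 40.8 CPM of Tie1. It was also highest for 7 of the 14 further endothelial surface genes. Its summed lists were 601.5 CPM for pericytes, 8488 CPM for fibroblasts and 301 CPM for adipocytes, each above the median. Eng in this tumor was at 321 CPM, next to its median of 322 CPM.

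Across tumors most of the genes varied together. Over the 30 tumors of the first experiment, Pearson's r of log2(CPM + 0.5) with the mean of the other 9 genes was 0.98 for Pecam1, 0.95 for Tie1, 0.92 for Cdh5, Kdr and Esam, and 0.89 for Flt1. It was 0.76 for Cldn5, 0.60 for Vwf, 0.51 for Tek and 0.22 for Eng. Without the 2 tumors farthest from the median, these values were 0.97 for Pecam1, 0.87 for Cdh5 and 0.18 for Eng. All 15 pairs among Pecam1, Cdh5, Kdr, Flt1, Tie1 and Esam, a set chosen after their values were seen, had r between 0.86 and 0.97. Tek went more with Vwf (r = 0.74) than with Cdh5 (r = 0.42), and it ran against Eng (r = -0.37). The genes were read from the same libraries, with the same depth and normalization, and the values are descriptions.

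**Figure D2:**
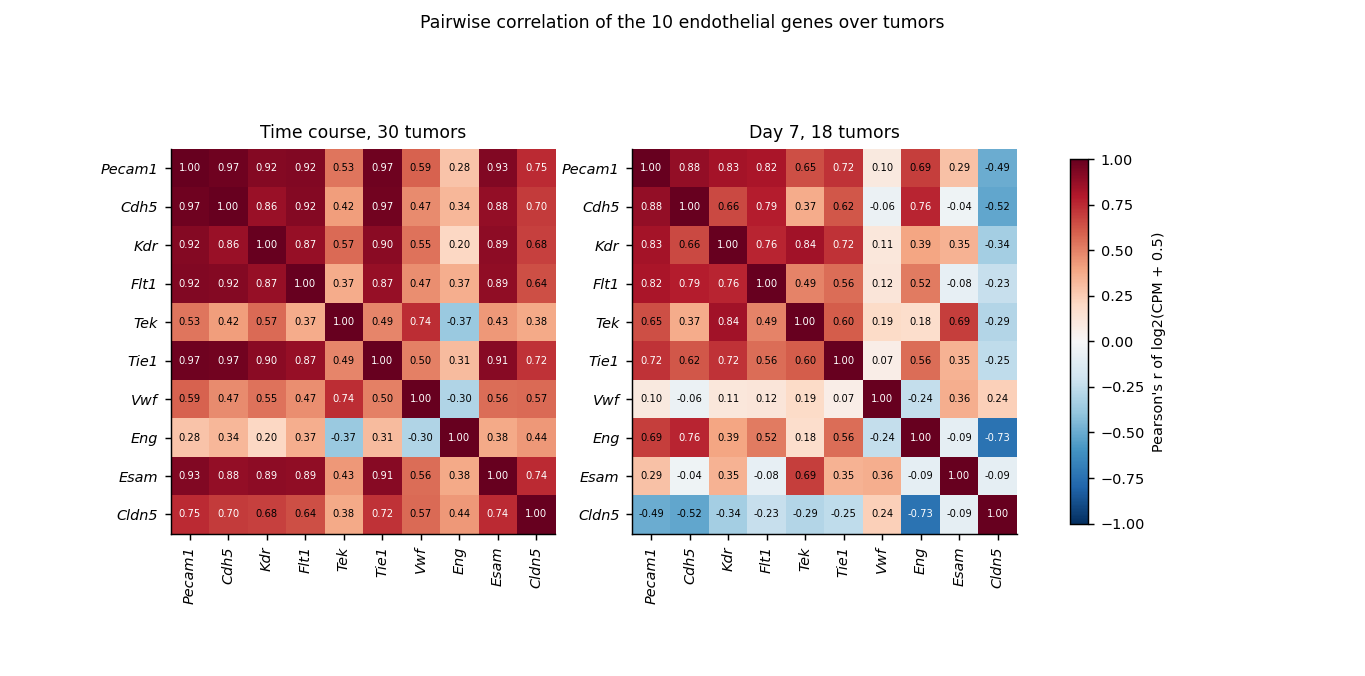
Pearson's r of log2(CPM + 0.5) between each pair of the 10 endothelial genes over the 30 tumors of the time course (left) and the 18 tumors of day 7 (right). Red is positive and blue negative. Pecam1, Cdh5, Kdr, Flt1, Tie1 and Esam form a red block in the time course, and the pair of Eng and Cldn5 goes from r = 0.44 there to r = -0.73 at day 7 (-0.44 without 3 libraries).

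In the 18 tumors of day 7 the block of Pecam1, Cdh5, Kdr, Flt1, Tie1 and Esam was looser, with r of its 15 pairs between -0.08 and 0.88 (median 0.66). The lowest pair was Flt1 and Esam. Esam had its highest day 7 level in WT anti-PD-1 replicate 3, a library high in sensory receptor counts. The 15 pairs were not recomputed without the 3 such libraries, so their part in the looser block is not known. The r with the mean of the other 9 genes was 0.87 for Kdr, 0.85 for Pecam1, 0.75 for Tie1, 0.73 for Flt1 and 0.58 for Cdh5, but 0.39 for Esam, 0.17 for Vwf and -0.41 for Cldn5. For Tek (0.70) and Eng (0.34) it was higher than in the time course. Without the 3 libraries high in sensory receptor counts, a choice made after seeing the data, these were 0.85 for Kdr, 0.90 for Pecam1, 0.71 for Tie1, 0.62 for Cdh5, 0.71 for Esam, 0.32 for Vwf and -0.19 for Cldn5. They were then 0.81 for Flt1, 0.78 for Tek and 0.18 for Eng. By pairs over the 18 tumors, Eng had r = 0.76 with Cdh5, 0.69 with Pecam1, 0.56 with Tie1, 0.52 with Flt1 and 0.39 with Kdr. Spearman's rho of Eng was 0.43 with Cdh5, 0.53 with Pecam1, 0.56 with Tie1, 0.23 with Flt1 and 0.22 with Kdr. Flt1 and Tie1 had r = 0.56. These pairs were not recomputed without the 3 libraries. Cldn5 and Eng, which had r = 0.44 in the time course, had r = -0.73 here (Spearman's rho -0.40). These became -0.44 and -0.19 without the 3 libraries.

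Counts at the rate per kilobase of the sensory receptor genes would amount to a large share of some members in these 3 libraries. In WT anti-PD-1 replicate 3 this share was 44.7% of the Tek count, 24.9% of Vwf, 19.2% of Cldn5 and 19.5% of Esam, and 4.92% of Cdh5 and 1.38% of Eng. In the 15 other tumors of day 7 it was at most 6.11% for any of the 10 genes. Esam (7.61 CPM), Vwf (33.3 CPM) and Cldn5 (3.80 CPM) had their highest day 7 level in this library, while Cdh5 (44.1 CPM), Eng (152 CPM) and Pecam1 (31.3 CPM) had their lowest. The part of this background in the levels was not tested.

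Rgs5 followed Cdh5 in both experiments, with r = 0.94 over the 30 tumors and r = 0.91 over the 18 tumors. Without the 2 tumors farthest in Cdh5, r was 0.83 and 0.90, and it was 0.89 at day 7 without the 3 libraries high in sensory receptor counts. Pdgfrb had r = 0.49 with Cdh5 in the time course and 0.90 at day 7 (0.77 and 0.80 without the 2 farthest tumors). The r of Pdgfrb was not recomputed without the 3 libraries. Its lowest day 7 level, 23.1 CPM, was in WT anti-PD-1 replicate 3, which is among them. Nos3, the endothelial nitric oxide synthase, had r = 0.88 with Cdh5 in the time course and -0.23 at day 7, and 0.19 at day 7 without the 2 farthest tumors. The highest Nos3 levels of day 7 were 13.4 and 13.2 CPM, in iNOS KO untreated replicate 1 and WT anti-PD-1 replicate 3, which are 2 of the 3 libraries high in sensory receptor counts. The r of Nos3 with Cdh5 at day 7 was 0.67 without the 3 libraries. Vegfa had r = -0.47 with Cdh5 in the time course (-0.30 without the 2 farthest tumors) and r = 0.80 at day 7 (0.63 without them, and 0.54 without the 3 libraries). The sign of this relation thus differed between the experiments.

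**Figure D3:**
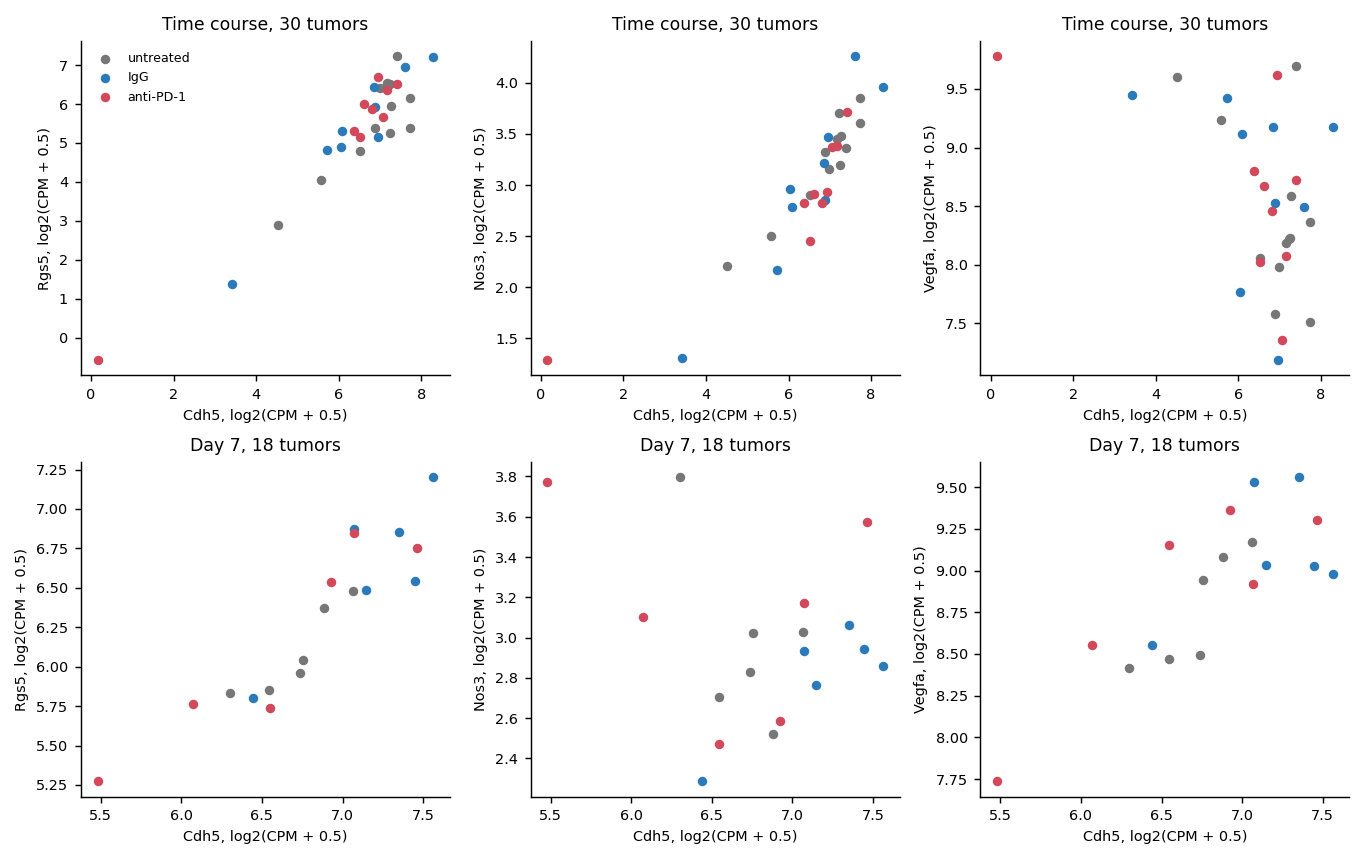
Levels of Rgs5 (pericytes), Nos3 (endothelial nitric oxide synthase) and Vegfa (ligand) against Cdh5, all as log2(CPM + 0.5), in the 30 tumors of the time course (top) and the 18 of day 7 (bottom), on axes scaled to each panel. Points are tumors, coloured by treatment. The tumor at the far left of the top row is day 3 anti-PD-1 replicate 4, with the lowest Rgs5 and the highest Vegfa.

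The genes whose pattern was most like the mean of the 10, by the lower of the r values of the 2 experiments among 14785 genes, were Ptprb (0.94), Aplnr (0.92), Sox18 (0.90), Pcdh17 (0.86) and Podxl (0.86). Pcdh1 (0.85), Ldb2 (0.85), Mmrn2 (0.83), Cyyr1 (0.82) and Notch3 (0.81) followed. Their r at day 7 ran from 0.81 to 0.94 without the 3 libraries. Ptprb encodes a phosphatase that acts on Tie2 and VE-cadherin, Aplnr the apelin receptor and Sox18 a transcription factor of vessel formation.

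No difference between conditions passed an adjusted p of 0.05 for any of the 10 genes. The test was edgeR's quasi-likelihood test over all genes of an experiment with Benjamini-Hochberg adjustment. In the time course it called 0 of 10 members and 0 of 26848 genes (0%) in each of the 14 comparisons. In the second experiment it called 0 of 10 members in each of 8 comparisons, against 181 of 30837 genes (0.587%) for iNOS KO against WT in untreated tumors and 58 genes (0.188%) for IgG against untreated in iNOS KO hosts. The other 6 comparisons of day 7 called 0 genes (0%). At an unadjusted p under 0.05 in edgeR there were 6 of 140 tests of the members in the time course (4.34% over all genes) and 2 of 80 at day 7 (13% over all genes). DESeq2 called 0 members in the 22 comparisons. The share of all genes that DESeq2 called is not given here, so its 0 is not set against one. A single edgeR test across all conditions of an experiment also called 0 of 10 members, against 0% of the genes in the time course and 1.66% at day 7. Its smallest p among the members was 0.0234 for Vwf in the time course (adjusted p = 0.738) and 0.0200 for Tek at day 7 (adjusted p = 0.141). The standard error of a log2 fold change in the time course was 0.93 to 0.94 for Cdh5 and 0.26 for Eng, so that changes of Cdh5 smaller than several-fold were not detectable with 3 tumors per condition. Comparisons within a time point or genotype share control tumors and are not independent of each other.

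**Figure D4:**
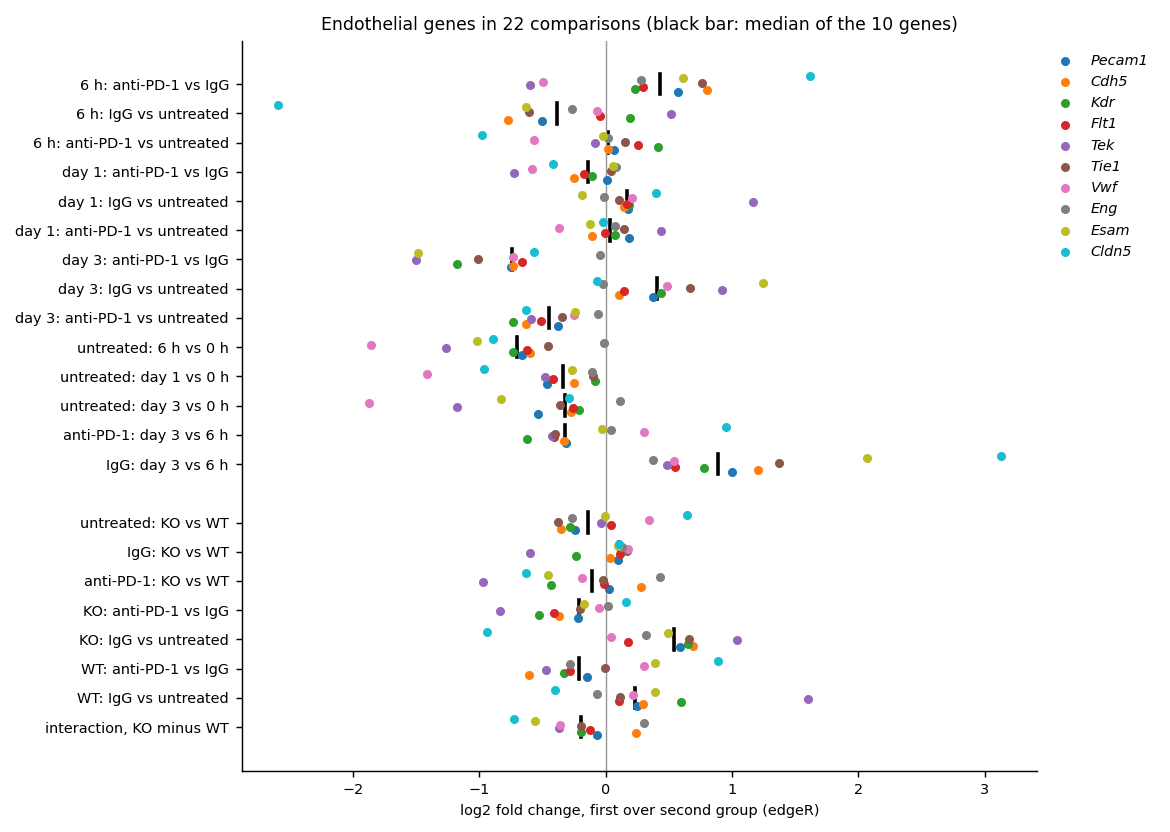
Fitted log2 fold change of each endothelial gene, first over second group, in the 14 comparisons of the time course (top) and the 8 of day 7 (bottom). Coloured points are genes and the black bar is their median. None of the points passed an adjusted p of 0.05, and the 10 points lie above 0 together only for IgG at day 3 against 6 hours.

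The first question was whether anti-PD-1 changed the endothelial genes relative to IgG. At 6 hours, 8 of the 10 genes had higher fitted levels after anti-PD-1, with a median log2 fold change of 0.43 (the median over all genes was -0.07). Pecam1, Cdh5, Tie1 and Esam were higher in every anti-PD-1 tumor than in every IgG tumor, a pattern that 2.13% of all genes showed. Pecam1 was at 61.9, 55.7 and 50.1 CPM after anti-PD-1 and at 32.1, 38.7 and 42.2 CPM after IgG, and its log2 fold change was 0.57 ± 0.63 (SE, adjusted p = 1.0). With a block for the replicate number the median became -0.06, and with the sensory covariate it was 0.76. The smallest p belonged to Cldn5, with a log2 fold change of 1.61 ± 1.05 (adjusted p = 0.990). It rests on counts of 24, 8 and 31 after anti-PD-1 and of 5, 14 and 0 after IgG.

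Against untreated tumors of 6 hours, the anti-PD-1 median was 0.02 and the IgG median was -0.38. The first ran from -0.14 without untreated replicate 1 to 0.33 without untreated replicate 2, and was -0.31 with a replicate block. The second ran from -0.61 to -0.21 without those same tumors, and was -0.87 with the sensory covariate. Cldn5 was at 0.565, 1.19 and 1.71 CPM in untreated tumors and at 0.153, 0.404 and 0 CPM after IgG, with no overlap, which 2.31% of all genes showed in this direction. These levels rest on counts of 18, 44 and 61 against 5, 14 and 0, and the gap between 14 and 18 counts lies within counting error. The log2 fold change of Cldn5 was -2.60 ± 1.07 (adjusted p = 0.760). Between anti-PD-1 and untreated tumors it was -0.98 ± 0.998 (adjusted p = 1.0). Vwf was lower in every anti-PD-1 tumor than in every untreated one, at 9.20, 11.3 and 8.26 CPM against 13.6, 16.3 and 12.8 CPM, as were 2.93% of all genes.

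At day 1 the medians were -0.14 for anti-PD-1 against IgG, 0.17 for IgG against untreated and 0.03 for anti-PD-1 against untreated. They were decided by single tumors. Leaving out IgG replicate 2 moved the first to 0.85, leaving out IgG replicate 4 moved it to -0.58, and the same tumors moved the second to -0.75 and 0.70. The last ran from -0.41 without untreated replicate 6 to 0.38 without untreated replicate 3. Tek had the smallest p in all 3 comparisons, and its values were 30.03, 5.14 and 38.9 CPM after IgG, 8.09, 11.4 and 25.2 CPM after anti-PD-1 and 20.5, 5.72 and 6.84 CPM in untreated tumors. The groups overlapped. Its log2 fold change was 1.16 ± 0.75 for IgG against untreated tumors (adjusted p = 0.870) and -0.73 ± 0.74 for anti-PD-1 against IgG (adjusted p = 1.0).

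At day 3 all 10 genes had lower fitted levels after anti-PD-1 than after IgG, with a median of -0.74, and the median over all genes was 0.00. Without anti-PD-1 replicate 4, the tumor lowest for 6 of the 10 genes, the median was -0.34, without anti-PD-1 replicate 5 it was -1.28, and with the sensory covariate it was -0.48. Tek was at 4.12, 2.86 and 6.52 CPM after anti-PD-1 and at 10.9, 19.1 and 8.30 CPM after IgG, without overlap. Kdr was at 30.2, 6.67 and 34.3 CPM against 38.4, 85.3 and 36.9 CPM, also without overlap. The pattern of being lower in every tumor was seen in 2 of 10 members and in 4.83% of all genes. The log2 fold change was -1.50 ± 0.76 for Tek (adjusted p = 1.0) and -1.17 ± 0.63 for Kdr (adjusted p = 1.0). Against untreated tumors the anti-PD-1 median was -0.45, and it was 0.05 without anti-PD-1 replicate 4, -0.86 without replicate 5, -1.08 with a replicate block and -0.10 with the sensory covariate. The IgG median against untreated tumors was 0.40, and its direction turned without IgG replicate 3 (-0.07) and with a replicate block (-0.17). Esam had the smallest p there, with 6.85, 14.6 and 4.97 CPM after IgG and 3.11, 4.498 and 3.54 CPM in untreated tumors (log2 fold change 1.24 ± 0.90, adjusted p = 1.0). It was higher in every IgG tumor, 1 of 10 members against 6.53% of all genes.

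Over time, the IgG tumors gave the largest median of the 22 comparisons. From 6 hours to day 3 all 10 genes had higher fitted levels, with a median log2 fold change of 0.89, or 0.37 with a replicate block and 0.55 without day 3 replicate 3, and the median over all genes was -0.06. Pecam1, Cdh5, Flt1, Tie1, Esam and Cldn5 were higher in every day 3 tumor, 6 of 10 members against 3.88% of all genes. Tie1 rested on 8.77, 9.22 and 7.48 CPM at 6 hours and 18.4, 33.1 and 14.6 CPM at day 3. Its log2 fold change was 1.37 ± 0.88 (adjusted p = 0.938). That of Cldn5 was 3.13 ± 1.09 (adjusted p = 0.935) and that of Esam was 2.07 ± 0.93 (adjusted p = 0.935). The Cldn5 change rests on counts of 5, 14 and 0 at 6 hours. The list of other endothelial surface genes had a median of 0.78 and the pericyte list 0.85 in the same comparison, while fibroblast markers had 0.22 and melanoma markers 0.11. Anti-PD-1 tumors had a median of -0.32 over the same interval, and 0.21 without day 3 replicate 4, -0.79 without day 3 replicate 5, -0.51 with a replicate block and -0.18 with the sensory covariate. Whether the change over time differed between IgG and anti-PD-1 was not tested.

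In untreated tumors the medians against 0 hours were -0.70 at 6 hours, -0.34 at day 1 and -0.33 at day 3. Without replicate 3 of 0 hours they were -0.31 at 6 hours and 0.01 at day 3, and without untreated replicate 6 of day 1 the median there was 0.02 (-0.73 without replicate 3). With a replicate block they were -0.28, -0.21 and 0.07, and with the sensory covariate -0.61 at day 1 and -0.78 at day 3. Without replicate 2 of day 3 the last was -0.58. Flt1 and Esam were lower in every tumor of 6 hours than at 0 hours (3.56% of all genes were), and Esam also in every tumor of day 3 (4.32% of all genes). Vwf had the smallest p in each comparison, with log2 fold changes of -1.86 ± 0.65 (adjusted p = 0.561), -1.42 ± 0.64 (adjusted p = 0.701) and -1.87 ± 0.65 (adjusted p = 0.568). These rested on the tumor of 0 hours with 130.1 CPM. Without it, the changes were 0.23, 0.68 and 0.21, so that the direction turned. Without a filter on low counts Vwf passed the test at 6 hours (adjusted p = 0.0115, 0.903% of all genes called) and at day 3 (adjusted p = 0.0104, 0.805% of all genes called).

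The second question was whether the host's iNOS genotype mattered at day 7. In untreated tumors, Cdh5 was at 78.3, 107.6 and 92.8 CPM in iNOS KO hosts and at 106, 133 and 117 CPM in WT hosts, and the groups overlapped. The median over the 10 genes was -0.14 while that over all genes was 0.49. Without the 3 libraries high in sensory receptor counts it was -0.03, with the sensory covariate 0.22 and without WT replicate 3 -0.27. Pecam1 was lower in every iNOS KO tumor, at 43.01, 48.9 and 47.3 CPM against 54.7, 57.8 and 52.5 CPM, as were 8% of all genes. Its log2 fold change was -0.25 ± 0.31 (adjusted p = 0.657). Eng had the smallest p, with -0.26 ± 0.22 (adjusted p = 0.469), and 0.09 with the sensory covariate.

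After IgG, the median was 0.10, but -0.10 without iNOS KO replicate 2, 0.25 without WT replicate 3 and -0.20 with the sensory covariate, and the fitted differences of the 10 genes ran from -0.60 for Tek to 0.17 for Vwf, the median over all genes being -0.14. Eng was at 302, 339 and 293 CPM in iNOS KO hosts and at 285, 286 and 284 CPM in WT hosts. It was higher in every iNOS KO tumor, as were 5.7% of all genes, by a log2 fold change of 0.13 ± 0.22 (adjusted p = 0.922). Tek was at 6.02, 12.2 and 5.48 CPM against 4.86, 5.97 and 25.2 CPM, and its log2 fold change was -0.60 ± 0.53 (adjusted p = 0.736). It was 0.55 without WT IgG replicate 3.

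After anti-PD-1, the comparison rested on the WT tumors. Cdh5 was at 176, 44.1 and 66.7 CPM in WT hosts and at 121, 93.1 and 134 CPM in iNOS KO hosts. The WT tumors thus lay on both sides of the iNOS KO tumors, and the 2 low ones, replicates 3 and 4, are those high in sensory receptor counts. Eng was at 311, 152 and 239 CPM in WT hosts and at 355, 289 and 301 CPM in iNOS KO hosts, and had the smallest p, with a log2 fold change of 0.43 ± 0.22 (adjusted p = 0.166), and -0.22 with the sensory covariate. Esam was lower in every iNOS KO tumor, as were 17% of all genes. The closest tumors were at 5.55 CPM in iNOS KO and 5.59 CPM in WT hosts, from counts of 214 and 117, a gap within counting error. The median of the 10 genes was -0.11 and that over all genes was -0.91. Without WT replicate 2, Pecam1 (log2 fold change 0.79), Cdh5 (1.11) and Eng (0.73) passed the test as higher in iNOS KO hosts, 3 of 10 members against 13.02% of all genes. Without the 3 libraries high in sensory receptor counts, which leaves WT replicate 2 alone in its group, the median was -0.58, and with the sensory covariate it was -0.60. Without WT replicate 2 it was 0.39, without WT replicate 4 -0.31, and without a filter on low counts 0.01.

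The same WT tumors set the comparison of anti-PD-1 with IgG in WT hosts. Cdh5 was at 141, 163 and 134 CPM after IgG, and its log2 fold change was -0.61 ± 0.35 (adjusted p = 0.336). The median of the 10 genes was -0.21, against 0.68 over all genes. Without WT anti-PD-1 replicate 2, Pecam1 (-0.88), Cdh5 (-1.41), Kdr (-1.01) and Flt1 (-0.77) passed the test as lower after anti-PD-1, 4 of 10 members against 5.96% of all genes, and without the 3 libraries high in sensory receptor counts the median was 0.39. It was -0.66 without WT anti-PD-1 replicate 2, 0.07 without replicate 3 and 0.05 with the sensory covariate. In iNOS KO hosts the median was -0.21 (0.00 over all genes), 0.02 without IgG replicate 2 and -0.39 without IgG replicate 1. Kdr was lower in every anti-PD-1 tumor there, at 23.01, 22.5 and 27.6 CPM against 30.003, 45.04 and 30.4 CPM, as were 3.77% of all genes, by -0.53 ± 0.32 on the log2 scale (adjusted p = 1.0). Flt1 had the smallest p, with -0.41 ± 0.24 (adjusted p = 1.0).

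The interaction asked whether the effect of anti-PD-1 over IgG differed between genotypes. Its median over the 10 genes was -0.20 (-0.47 over all genes), and Esam had the smallest p, with -0.56 ± 0.41 on the log2 scale (adjusted p = 0.747). The interaction of Cdh5 was 0.24 ± 0.49 and that of Kdr was -0.20 ± 0.46. Without the 3 libraries high in sensory receptor counts the median was -0.70, with the sensory covariate it was -0.35, without WT IgG replicate 3 it was -0.42, and leaving out replicate 2 of WT anti-PD-1 gave 0.32, so that its direction depended on which tumors were kept.

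IgG was also compared with no treatment at day 7. In iNOS KO hosts 9 of the 10 genes had higher fitted levels after IgG, with a median of 0.54 while the median over all genes was -0.45. The untreated group holds 1 of the libraries high in sensory receptor counts. The median was 0.48 without the 3 libraries, 0.0565 with the sensory covariate and 0.31 without IgG replicate 2. Pecam1 (54.6, 92.1 and 62.4 CPM after IgG), Kdr (30.003, 45.04 and 30.4 CPM) and Tek (6.02, 12.2 and 5.48 CPM) were higher in every IgG tumor than in the untreated ones, as were 8.02% of all genes. Tie1 had the smallest p, with 11.3, 21.4 and 17.8 CPM after IgG and 8.29, 11.6 and 12.1 CPM untreated, and a log2 fold change of 0.66 ± 0.31 (adjusted p = 0.314), or 0.24 with the sensory covariate. In WT hosts the median was 0.23, and it was 0.03 without IgG replicate 3 and 0.45 with the sensory covariate. Cdh5 and Esam were higher in every IgG tumor, as were 6.79% of all genes, and Eng was lower in every one, as were 6.05% of all genes. The closest IgG and untreated tumors had 133.9 and 133.2 CPM of Cdh5. For Esam these were 4.37 and 4.25 CPM, from counts of 145 and 149. These gaps of Cdh5 and Esam lie within counting error. Tek had the smallest p, with 4.29, 5.24 and 2.28 CPM untreated and 4.86, 5.97 and 25.2 CPM after IgG. Its log2 fold change was 1.60 ± 0.54 (adjusted p = 0.565), and it was 0.45 without WT IgG replicate 3. Without the filter on low counts, Tek passed the test in WT hosts (adjusted p = 0.000818, 1.297% of all genes called) and in iNOS KO hosts (adjusted p = 0.0450, 2.66% of all genes called).

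Genes that act with these 10 did not pass the test either. Of the 8 VEGF and angiopoietin ligands, the 14 co-receptors, junction and signaling partners (13 of them tested at day 7), the 10 endothelial transcription factors and the 14 other endothelial surface genes, 0 were called higher and 0 lower in the 22 comparisons with edgeR. The medians of the 14 other surface genes ran from -0.84 (anti-PD-1 against IgG at day 3) to 0.78 (IgG at day 3 against 6 hours), the same comparisons that held the lowest and highest medians of the 10 members. The 9 pericyte and smooth muscle markers ran from -0.82 to 0.85 in those comparisons as well. The medians of the 5 lymphatic endothelial markers stayed between -0.18 and 0.19. Of the lead genes, Vegfa had a log2 fold change of 1.53 ± 0.52 in untreated tumors of day 1 against 0 hours (adjusted p = 0.497). Pdgfrb had 0.87 ± 0.30 for IgG against untreated iNOS KO tumors (adjusted p = 0.277) and -0.89 ± 0.30 for anti-PD-1 against IgG in WT hosts (adjusted p = 0.305). In these WT hosts Pdgfrb was at 75.8, 23.1 and 32.5 CPM after anti-PD-1 and at 74.3, 83.6 and 86.7 CPM after IgG. The low values are those of replicates 3 and 4, the libraries high in sensory receptor counts. Angpt2, the gene of an angiopoietin, had -0.62 ± 0.25 for iNOS KO against WT in untreated tumors (adjusted p = 0.299) and -0.57 ± 0.25 for IgG against untreated in WT hosts (adjusted p = 0.565). Nos3 had -0.78 ± 0.31 for iNOS KO against WT after anti-PD-1 (adjusted p = 0.136), where the median over all genes was -0.91. Its highest level in that comparison, 13.2 CPM, was in WT replicate 3, a library high in sensory receptor counts. The median log2 fold changes of leukocyte markers in the 22 comparisons ran from -1.06 to 1.39, those of platelet markers from -1.80 to 1.21, and those of melanoma markers from -0.35 to 0.46.

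The 10 genes lie on 8 chromosomes in GENCODE vM21 (GRCm38), and all are protein coding. Cdh5, at chr8:104101625-104144511 on the plus strand, overlaps Gm29682 on the minus strand, which reached a count of 36 in any library. Eng, at chr2:32646595-32682669 on the plus strand, overlaps 4 genes, among them Fpgs on the minus strand, and the highest count of an overlapping gene was 1066 against at least 2312 for Eng. How the counting used strand is not given in the sources used here.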

How the data were processed

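RNA was sequenced from 48 tumors. Per the labels and methods, the authors removed adapters with cutadapt (1.8.1), aligned reads to mm10 with STAR (2.7.7a) and deposited whole-number counts per gene, estimated with RSEM (1.3.0) on GENCODE vM21. The name of the deposited table refers to another counting program, and the values do not show which was used. Replicates were not pooled.

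Conditions were taken from the sample titles, since the treatment field matched the title in 14 of 48 samples and the genotype field read WT for all 48 although 9 titles give KO. The titles' first time point, D0, was taken as 6 hours, and day 7 of the second experiment came from the paper's description of that experiment. Nothing pairs tumors of equal replicate number: over 65 and 36 pairs of equal number, the median correlation of deviations from the group mean was -0.08 and -0.02.

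The experiments were modelled separately in edgeR 4.0.16 (R 4.3.3): TMM, filterByExpr with a minimum count of 10, 1 coefficient per condition, and the quasi-likelihood test with Benjamini-Hochberg adjustment over all 26848 or 30837 genes. CPM use TMM library sizes, and logs use CPM + 0.5. DESeq2 1.42.0 was an alternative, as were its size factors in edgeR, no filter, only the groups compared, a replicate block, the log2 level of sensory receptor counts as a covariate, each tumor left out, and 3 libraries left out. Counting error is small beside the spread between tumors at totals of 11625862 to 47687872 counts per library, except at low counts, such as the 5, 14 and 0 of Cldn5 in the IgG tumors of 6 hours. The limit for a count of 0 is 3 counts and covers counting error only. Replicate libraries differed by 18.2 to 479 times the sampling noise (chi-square per gene), and all were kept. The statistics were tested on simulated data. For each comparison the text names members that passed the test or else the member with the smallest p, the 10 genes most like the members and 5 lead genes, and it also names members without overlap between groups. Members and lists were chosen with earlier results of these data known.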

Additional observations from a re-analysis of the deposited data

How the results depend on the processing

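Counts under 100 occurred for Cldn5 in 45 tumors, for Esam in 9, for Tek in 6, for Tie1 in 2 and for Cdh5 in 1. The number of tumors per condition and the spread between tumors set the precision. Of 286 recomputed counts of members called, 278 were the same as reported. Without a filter on low counts, 1 member was called in untreated tumors at 6 hours and at day 3 against 0 hours (Vwf, -1.88 with adjusted p = 0.0115 and -1.89 with adjusted p = 0.0104), and 1 for IgG against untreated in iNOS KO and in WT hosts (Tek, 1.56 with adjusted p = 0.000818 in WT). The test across all conditions, also without this filter, called 2 members in the time course (Tek, Vwf) and 2.85% of all genes. At day 7 it called 3 members (Cdh5, Kdr, Tek) and 14.4% of all genes. Without WT anti-PD-1 replicate 2, 3 members were called for iNOS KO against WT after anti-PD-1 and 4 for anti-PD-1 against IgG in WT. The cause of these changes was not tested.

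Of the medians of the 10 genes, 257 of 278 moved by less than the spread between tumors. The SD of the mean of the 10 genes between replicates was up to 1.22 on the log2 scale, so that a median could change sign within it. For IgG against untreated at day 1 (SD 1.20) it went from 0.17 to -0.75 without IgG replicate 2. The count therefore does not show that directions were stable. With a replicate block, which has no basis in the labels, the median moved to -0.0566 for anti-PD-1 against IgG at 6 hours, to -0.17 for IgG against untreated at day 3 and to 0.37 for IgG at day 3 against 6 hours, and the block changed no call. With the sensory receptor level as covariate, medians were 0.76 (anti-PD-1 against IgG, 6 hours), -0.87 (IgG against untreated, 6 hours), 0.22 (untreated, iNOS KO against WT), -0.60 (anti-PD-1, iNOS KO against WT) and 0.0565 (IgG against untreated, iNOS KO), and Eng reversed to 0.0854 in untreated and to -0.22 in anti-PD-1 tumors for iNOS KO against WT. Without the 3 libraries high in sensory receptor counts, medians were -0.0272 (untreated, iNOS KO against WT), -0.58 (anti-PD-1, iNOS KO against WT), 0.39 (anti-PD-1 against IgG, WT) and -0.70 (interaction).

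Leaving out each tumor in turn, medians ran from 0.41 to 0.65 (anti-PD-1 against IgG, 6 hours), from -0.58 to 0.85 (the same, day 1), from -0.27 to -0.0186 (untreated, iNOS KO against WT), from -0.31 to 0.39 (anti-PD-1, iNOS KO against WT), from -0.66 to 0.0655 (anti-PD-1 against IgG, WT) and from -0.42 to 0.32 (interaction). Vwf against 0 hours ran from -2.38 to 0.23 at 6 hours, from -1.92 to 0.68 at day 1 and from -2.39 to 0.21 at day 3, each positive without untreated replicate 3 of 0 hours and lowest without replicate 2. Tek ran from -0.19 (without anti-PD-1 replicate 5) to 1.26 for anti-PD-1 against untreated at day 1, and from -1.01 to 0.55 (without WT IgG replicate 3) for iNOS KO against WT after IgG.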
